A study of Mus musculus with 15 samples.

Results

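The 9 genes described here encode the enzymes of liver glycolysis, gluconeogenesis and glycogen turnover, with the glucose transporter of hepatocytes and a transcriptional coactivator of glucose production. They were taken by name (Pklr, Pck1, G6pc, Fbp1, Pcx, Slc2a2, Gys2, Pygl and Ppargc1a) from the 55450 gene IDs of the count table. All 9 were among the 15808 genes that passed the filter on low counts.

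Poly(A) RNA from the livers of 15 female mice of the C57BL/6 strain was sequenced, with 3 groups of 5. The Adult group (A1 to A5) was aged 6 months when the study began and the Old group (O1 to O5) 22 months, and both received corn oil daily by gavage as vehicle. The PDX group (P1 to P5), of the same starting age as Old, received protectin DX, a lipid mediator made from an omega-3 fatty acid, daily by gavage at 30 ng per g of body weight. The treatment protocol gives 9 weeks of gavage, whereas the series design gives 8. Each library came from a different mouse, and total counts ranged from 22424383 to 36070835 per mouse. Old was compared with Adult for the effect of age, and PDX with Old for that of treatment at the same age. PDX was also compared with Adult, where age and treatment cannot be told apart. These comparisons share mice with each other and are not independent.

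The liver both burns and makes glucose. Pyruvate kinase closes glycolysis, and gluconeogenesis bypasses the irreversible glycolytic steps with pyruvate carboxylase, phosphoenolpyruvate carboxykinase, fructose-1,6-bisphosphatase and glucose-6-phosphatase. Glycogen synthase stores glucose after a meal and glycogen phosphorylase releases it in fasting, and insulin and glucagon shift the balance, in part through transcription.

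O5 and O2 stood apart from the other mice. O5 had the highest or the lowest scaled count of all 15 mice for 54.3% of the genes tested and O2 for 32.5%, whereas the share was 20.2% for O1 and 3.26% to 13.5% for the other mice. Among the 9 genes, O5 was the highest mouse for Pck1, Pcx and Ppargc1a and the lowest for Pklr, Slc2a2 and Pygl. O2 was the lowest mouse for Fbp1, Pcx, Gys2 and Ppargc1a. The labels call both mice Frail, as they do 2 other Old and 2 PDX mice. They give O5 a body weight change of -3.55% and a wheel activity of 0.0399 km per day, the lowest of the 15 mice, and a frailty index of 0.56, the highest. They give O2 a body weight change of 3.07%, the highest, and a treadmill distance of 33.9 m, the lowest. By the study's figure legends, the weight change is a weekly average and not a total. The part of these traits in the results was not tested. The log2 fold changes of the 9 genes are therefore also given without both mice, a choice made from these same data.

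Between genes, levels were compared as TPM, a scaled count per length of exon sequence. In the Adult group, Pck1 stood at 2310 ± 691 TPM (SD, n = 5) and Fbp1 at 1663 ± 154. Then came G6pc at 381 ± 91.5 TPM, Pcx at 353 ± 30.8, Pygl at 243 ± 18.5 and Pklr at 210 ± 27.7. Gys2 stood at 120 ± 52.8 TPM and Slc2a2 at 115 ± 25.1. Neighbours in this order are taken as within their spread where the ranges of 1 SD around their means overlap, which held for Pck1 and Fbp1, G6pc and Pcx, Pygl and Pklr, and Gys2 and Slc2a2. Ppargc1a was far below the enzymes, at 3.54 ± 1.47 TPM. The order of the means was the same in the Old group, where the same neighbours and also Pklr and Gys2 lay within their spread. When O2 and O5 were left out, the Old mean of Slc2a2 was above that of Gys2. In the PDX group, G6pc (186 ± 50.9 TPM, SD, n = 5) came after Pcx (297 ± 19.9 TPM), and the other genes kept that order. In that group Pck1 and Fbp1, G6pc and Pygl (182 ± 19.1 TPM), Pygl and Pklr, and Gys2 and Slc2a2 lay within their spread.

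Within groups, the spread of these genes differed widely. On the scale used within genes, CPM, which is the count scaled to the library total with TMM factors, the coefficient of variation of the 9 genes ran from 6.82% (Pcx) to 42.5% (Ppargc1a) in the Adult group, where the median over all genes tested was 14.4%. It ran from 27.5% (Gys2) to 118% (Ppargc1a) in the Old group, against a median of 36.6%, and from 11.5% (Pcx) to 52.0% (Pck1) in the PDX group, against 15.8%.

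Between Old and Adult, 1 of the 9 genes (Fbp1, lower in Old) had an adjusted p under 0.05 in edgeR's quasi-likelihood test. Of all genes tested, 6.78% passed that threshold and 2.07% passed it with a lower level in Old. The Old and Adult mice did not overlap for 2 of the 9 genes (Fbp1 and Pygl), and for 8.13% of all genes. At an unadjusted p under 0.05, 3 of the 9 (Fbp1, Gys2 and Pygl) were counted, and 27.7% of all genes. The median log2 fold change of the 9 genes was -0.70, with 7 of them below 0, whereas the median of all genes was 0.07 and 43.2% of them were below 0. Without O2 and O5 the median of the 9 was -0.46, and 1 of them (Pygl) passed, beside 7.12% of all genes. Leaving out each mouse in turn moved the number of all genes called from 1072 to between 156 (without A5) and 2178 (without O3), and the number among the 9 to between 0 and 2 (Fbp1 and Pygl, without O5, where 13.2% of all genes passed).

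Between PDX and Old, edgeR called 0 of the 9 genes at an adjusted p under 0.05 and 0 at the threshold of 0.25, and of all genes tested also 0 (0%). At an unadjusted p under 0.05 it counted 1 of the 9 (G6pc) and 5.28% of all genes. The Wald test of DESeq2 called 1 gene, Myh8, which was named after its values were seen, with 27 counts in P1 and 0 in the 9 other Old and PDX mice. The median log2 fold change of the 9 was -0.02, with 5 of them below 0, against a median of -0.07 over all genes and 59.9% of them below 0. None of the 9 genes had PDX and Old mice without overlap, which held for 0.342% of all genes. With O2 and O5 left out, 0 of the 9 and 0% of all genes passed 0.05.

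Between PDX and Adult, edgeR called 0 of the 9 genes at an adjusted p under 0.05 and 2.66% of all genes, and the Wald test of DESeq2 called 2 of the 9 (G6pc and Gys2) and 7.36% of the genes it adjusted. At an unadjusted p under 0.05, 3 of the 9 (G6pc, Fbp1 and Gys2) were counted and 20.6% of all genes. The groups did not overlap for G6pc, Slc2a2 and Pygl, and for 19.9% of all genes. All 9 log2 fold changes were below 0 in that fit, with a median of -0.48, whereas the median of all genes was -0.01 and 51.6% of them were below 0. When O2 and O5 were left out of the fit, which also sets the spread used for this comparison, 5 of the 9 (G6pc, Fbp1, Slc2a2, Gys2 and Pygl) passed, beside 24.6% of all genes. The same 5 passed in a fit of the Adult and PDX mice alone, beside 29.6% of all genes. With O5 alone left out 3 of the 9 passed (G6pc, Slc2a2 and Gys2) and 10.9% of all genes, and with O2 alone left out 1 (Gys2) and 11.1%. The number of all genes called moved from 420 to between 166 (without A5) and 1766 (without O2) when each mouse was left out in turn.

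**Figure D1:**
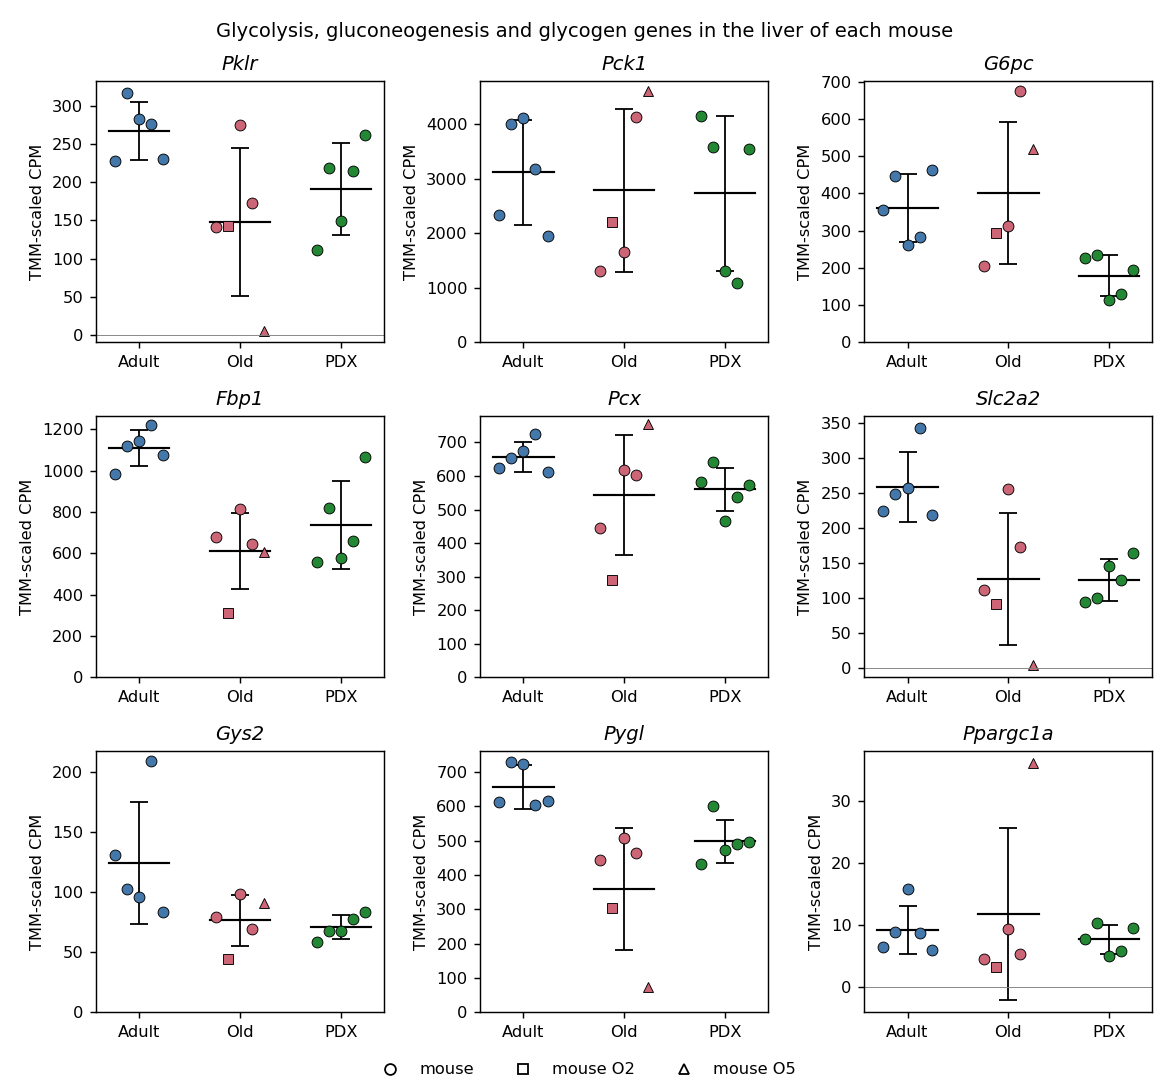
TMM-scaled CPM of the 9 genes (vertical axes) in each Adult, Old and PDX mouse, with O2 as squares and O5 as triangles. Horizontal lines are group means and bars are 1 SD (n = 5), and O5 lies at 5.95 CPM for Pklr, 3.21 for Slc2a2 and 36.1 for Ppargc1a.

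Pklr (ENSMUSG00000041237, chromosome 3, 89136142 to 89146784 of GRCm38) encodes the pyruvate kinase of liver and red cells, the last step of glycolysis. Adult mice A1 to A5 had 227, 317, 283, 276 and 231 CPM. Old mice O1 to O5 had 142, 143, 275, 173 and 5.95 CPM, and PDX mice P1 to P5 had 111, 219, 150, 215 and 262 CPM. O5 stood far below every other mouse, 4 of 5 Old mice were under all Adult mice, and O3 lay within the Adult range. The log2 fold change between Old and Adult was -0.85 (SE 0.56, 95% interval -2.05 to 0.34, adjusted p = 0.342 in edgeR's test), and -0.43 without O2 and O5 (SE 0.26), with a range of -1.525 to -0.43 over all alternatives. Between PDX and Old it was 0.37 (95% interval -0.82 to 1.56), and -0.03 without these 2 mice.

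Pck1 (ENSMUSG00000027513, chromosome 2, 173153048 to 173159273) encodes the cytosolic phosphoenolpyruvate carboxykinase, which commits oxaloacetate to glucose. Its CPM in A1 to A5 was 2332, 4008, 4105, 3170 and 1951. It was 1307, 2209, 1661, 4134 and 4612 in O1 to O5, and 4138, 3578, 1308, 1094 and 3538 in P1 to P5. Each group held both low and high mice and the groups overlapped throughout. The log2 fold change was -0.16 between Old and Adult (95% interval -1.08 to 0.75) and -0.03 between PDX and Old (95% interval -0.94 to 0.89), with adjusted p-values of 0.843 and 0.989 in edgeR's test. These values were -0.39 and 0.21 without O2 and O5 (adjusted p = 0.652 and 0.953).

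G6pc (ENSMUSG00000078650, chromosome 11, 101367561 to 101377903) encodes the catalytic subunit of glucose-6-phosphatase, which frees glucose for release. Adult mice A1 to A5 had 355, 447, 261, 283 and 462 CPM. In O1 to O5 it stood at 204, 294, 311, 674 and 520 CPM, and in P1 to P5 at 227, 233, 113, 129 and 194. Every PDX mouse was below every Adult mouse, and O1 was the only Old mouse within the PDX range. PDX stood at 179 ± 55.4 CPM and Old at 401 ± 192 (SD, n = 5 each), a log2 fold change of -1.16 (SE 0.32, 95% interval -1.83 to -0.49), with 5 of 5 PDX mice below the Old mean. Its unadjusted p was 0.00222 and the difference failed the adjustment over all genes (adjusted p = 0.793 in edgeR's test). Against Adult it was -1.01 (SE 0.31, adjusted p = 0.0962 in edgeR's test). The value against Old was -1.14 without O2 and O5 (adjusted p = 0.338 in edgeR's test), and that against Adult -0.99 (adjusted p = 0.0271). Over all alternatives the adjusted p ran from 0.297 to 0.999 against Old and from 0.00683 to 0.203 against Adult.

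Fbp1 (ENSMUSG00000069805, chromosome 13, 62864753 to 62888282) encodes fructose-1,6-bisphosphatase, the step of gluconeogenesis that opposes phosphofructokinase. Its CPM was 986, 1121, 1145, 1220 and 1074 in A1 to A5, and 678, 311, 814, 645 and 607 in O1 to O5. In P1 to P5 it was 558, 821, 575, 657 and 1067. All 5 Old mice were below all Adult mice, and of the PDX mice P5 alone reached the Adult range. Fbp1 fell from 1109 ± 86.8 to 611 ± 185 CPM (SD, n = 5 each) between Adult and Old, a log2 fold change of -0.86 (SE 0.24, adjusted p = 0.0442 in edgeR's test). The call lay close to the threshold and was lost without O2 and O5, where the log2 fold change was -0.63 (SE 0.19, adjusted p = 0.0625 in edgeR's test). It was also lost when any 1 of 11 mice was left out (each Adult mouse, O1, O2 and P1 to P4), and kept without O3, O4, O5 or P5. Over all alternatives the adjusted p ran from 0.00759 to 0.118. For PDX against Old the log2 fold change was 0.27 (95% interval -0.24 to 0.77), and 0.05 without O2 and O5. Between PDX and Adult it was -0.59 (SE 0.24, adjusted p = 0.175 in edgeR's test), and -0.57 without O2 and O5 (adjusted p = 0.0201), with a range of 0.0201 to 0.336 over all alternatives.

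Pcx (ENSMUSG00000024892, chromosome 19, 4510472 to 4621752) encodes pyruvate carboxylase, the mitochondrial entry of pyruvate into gluconeogenesis. Adult mice ranged narrowly, with 623, 655, 676, 724 and 611 CPM in A1 to A5. O1 to O5 had 445, 290, 619, 604 and 756 CPM, so that the lowest and the highest of the 15 mice were both Old. P1 to P5 had 583, 640, 466, 537 and 574 CPM. The log2 fold change was -0.28 between Old and Adult (95% interval -0.72 to 0.17) and 0.04 between PDX and Old (95% interval -0.40 to 0.49), with adjusted p-values of 0.408 and 0.963 in edgeR's test. They were -0.23 and 0.02 without O2 and O5.

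Ppargc1a (ENSMUSG00000029167, chromosome 5, 51454250 to 51567726) encodes PGC-1α, a coactivator known to raise gluconeogenic gene transcription in fasting. In A1 to A5 its CPM was 6.44, 8.84, 15.7, 8.75 and 6.05. O1 to O4 had 4.54, 3.25, 9.35 and 5.35 CPM, and O5 had 36.1. P1 to P5 had 7.73, 10.4, 4.98, 5.90 and 9.46 CPM. O5 alone set the direction of the Old mean. The log2 fold change between Old and Adult was 0.36 with all mice (95% interval -0.80 to 1.52) and -0.50 without O2 and O5 (adjusted p = 0.705 and 0.390 in edgeR's test). PDX against Old gave -0.61 (95% interval -1.77 to 0.55), and 0.26 without these mice.

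Slc2a2 (ENSMUSG00000027690, chromosome 3, 28697903 to 28731359) encodes GLUT2, through which hepatocytes take up and release glucose. A1 to A5 had 224, 249, 258, 343 and 218 CPM. O1 to O5 had 112, 91.6, 255, 173 and 3.21 CPM, and P1 to P5 had 93.2, 99.8, 145, 126 and 163. Every PDX mouse was below every Adult mouse, and O3 alone of the Old mice reached the Adult range. O5 had 89 counts of it, and the ratio between the highest and the lowest Old mouse, 79.5, was the widest of the 9 genes. For PDX against Adult the log2 fold change was -1.04 with all 15 mice, with an SE of 0.61 (adjusted p = 0.348 in edgeR's test). Without O2 and O5 it was -1.02 with an SE of 0.22 (adjusted p = 0.00421 in edgeR's test), and over all alternatives the adjusted p ran from 0.00138 to 0.511. Between Old and Adult it was -1.03 (SE 0.61, adjusted p = 0.289 in edgeR's test), and -0.51 without O2 and O5, with a range of -1.85 to -0.51 over all alternatives. For PDX against Old it was -0.02 (95% interval -1.31 to 1.27), and -0.51 without O2 and O5.

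Gys2 (ENSMUSG00000030244, chromosome 6, 142422613 to 142473109) encodes liver glycogen synthase. Its CPM was 131, 103, 96.0, 210 and 83.2 in A1 to A5, and A4 was the highest of the 15 mice. It was 79.1, 44.6, 98.7, 69.3 and 90.9 in O1 to O5, and 58.2, 67.9, 68.0, 77.4 and 83.9 in P1 to P5. All Old and PDX mice were below the Adult mean, with some overlap at the lowest Adult mice. The log2 fold change between Old and Adult was -0.70 (SE 0.25, 95% interval -1.23 to -0.17, adjusted p = 0.0866 in edgeR's test), and -0.58 without O2 and O5 (adjusted p = 0.172), with a range of 0.0550 to 0.222 over all alternatives. Between PDX and Adult it was -0.81 (SE 0.25, adjusted p = 0.0940 in edgeR's test), and -0.79 without O2 and O5 (adjusted p = 0.0164), with a range of 0.0164 to 0.221 over all alternatives. Against Old, PDX gave -0.11 (95% interval -0.63 to 0.42), and -0.21 without O2 and O5.

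Pygl (ENSMUSG00000021069, chromosome 12, 70190811 to 70231488) encodes liver glycogen phosphorylase, which opens glycogen breakdown. A1 to A5 had 611, 729, 724, 605 and 615 CPM. In O1 to O5 the values were 444, 304, 509, 465 and 73.7, and in P1 to P5 they were 433, 602, 472, 491 and 496. All Old and all PDX mice lay below all Adult mice, P2 by only a small margin. Between Old and Adult the log2 fold change was -0.87 (SE 0.35, adjusted p = 0.119 in edgeR's test). Without O2 and O5 it was smaller, -0.46, but so was its SE (0.12), and it passed the threshold (adjusted p = 0.0371 in edgeR's test), as it did without O5 alone (-0.61, adjusted p = 0.0269). Over all alternatives the adjusted p ran up to 0.265. PDX against Old gave 0.47 (95% interval -0.26 to 1.21), and 0.08 without these mice. Between PDX and Adult it was -0.40 with all mice (adjusted p = 0.552 in edgeR's test) and -0.38 without O2 and O5 (adjusted p = 0.0172).

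**Figure D2:**
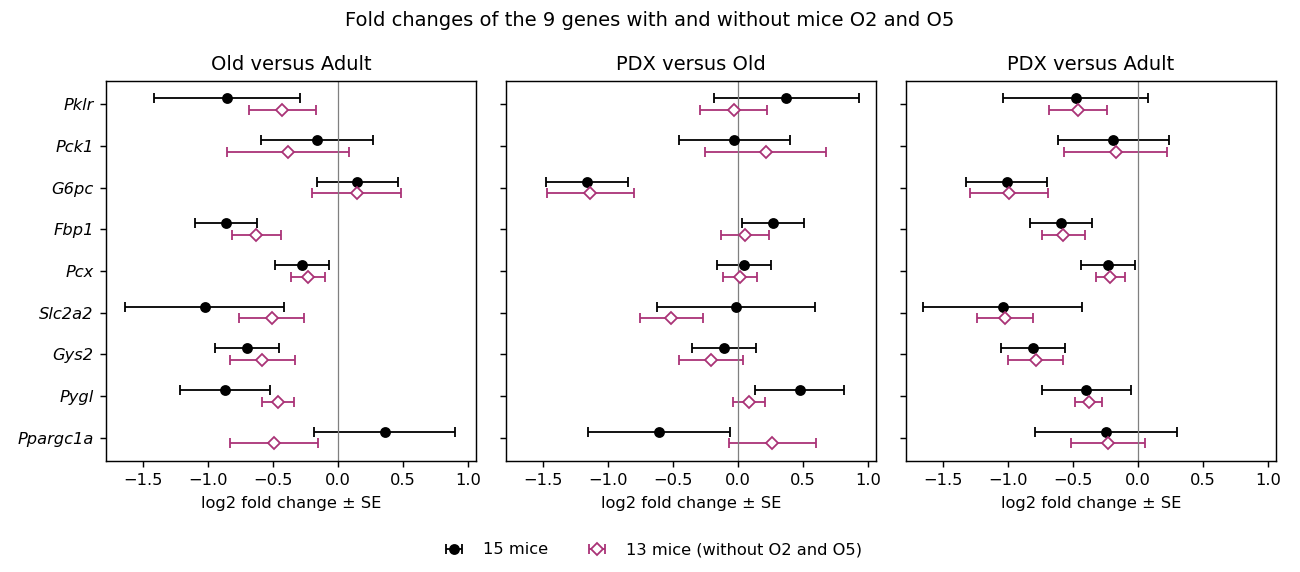
Log2 fold changes (horizontal axes, bars 1 SE of edgeR's fit) of the 9 genes in the 3 comparisons, from all 15 mice (filled circles) and from 13 mice without O2 and O5 (open diamonds). For Slc2a2 between PDX and Adult the values nearly coincide, at -1.04 and -1.02, whereas the SE is 0.61 and 0.22, and for Ppargc1a the sign differs between the fits in Old against Adult and in PDX against Old.

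Of 36 pairs among the 9 genes, 2 had a Pearson r with an adjusted p under 0.05 over the 15 mice, after group means were removed from log2 CPM (two-sided permutation within groups, Benjamini-Hochberg over the pairs). Pklr and Pygl had r = 0.97 (permutation p = 0.00031, adjusted p = 0.0112) and Spearman's rho = 0.89 (permutation p = 0.00062, adjusted p = 0.0223). Pklr and Slc2a2 had r = 0.97 (permutation p = 0.00263, adjusted p = 0.0473) and rho = 0.76 (permutation p = 0.0388, adjusted p = 0.199). Without O3 and O5, the mice farthest from the median of Pklr, r was 0.53 and 0.51 for these pairs. With O5 alone left out, an alternative chosen after seeing the data, r was 0.64 (permutation p = 0.0487, adjusted p = 0.125) and 0.68 (permutation p = 0.0195, adjusted p = 0.0935), so that neither pair passed without O5. Without O2 and O5, r was 0.70 (permutation p = 0.0144, adjusted p = 0.14) and 0.67 (permutation p = 0.0498, adjusted p = 0.179), and 0 of the 36 pairs passed. In 19 of the 36 pairs r was positive with all mice, and in 31 without O2 and O5.

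The next smallest p belonged to Fbp1 and Gys2, with r = 0.63 (permutation p = 0.00539, adjusted p = 0.0647) and rho = 0.53 (permutation p = 0.0285, adjusted p = 0.199). For that pair r was 0.31 without O2 and P5, the mice farthest from the median of Fbp1, and 0.42 without O2 and O5. Pck1 and G6pc, both under the control of insulin and glucagon, had r = 0.71 (permutation p = 0.0123, adjusted p = 0.111) and rho = 0.75 (permutation p = 0.00974, adjusted p = 0.175). Here r was 0.61 without O1 and P4, the mice farthest from the median of Pck1, and 0.69 without O2 and O5. Neither pair passed the adjustment over the 36 pairs. In the PDX group P3 and P4 were lowest for both Pck1 and G6pc, and in the Old group O4 and O5 were highest for both. The Adult mice did not follow that order, since A5 had the lowest Pck1 and the highest G6pc of its group.

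**Figure D3:**
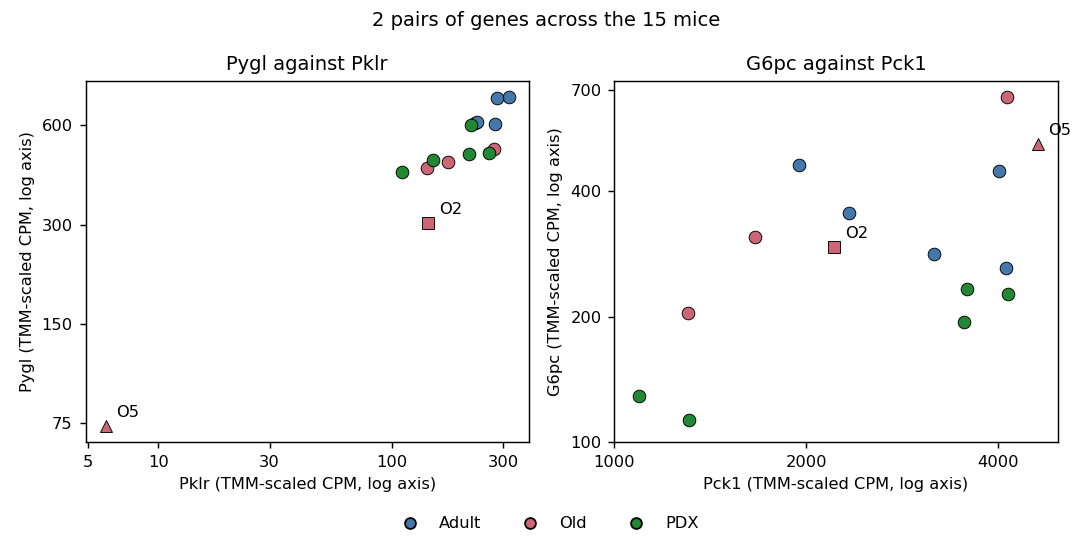
TMM-scaled CPM of Pygl against Pklr and of G6pc against Pck1 in the 15 mice (log axes, 1 symbol per mouse, coloured by group, O2 square and O5 triangle). O5 lies at 5.95 CPM of Pklr and 73.7 CPM of Pygl, apart from the other mice. The groups overlap for Pck1, whereas for G6pc every PDX mouse lies below every Adult mouse.

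The promoters of Pklr, Pygl and Slc2a2, which form the pairs that passed, and of Pck1 and G6pc are shown to let their sequences be compared. RefSeq promoter windows of 300 bases (GRCm38.p6, 250 bases before to 50 after a gene start) were found for 8 of the 9 genes, 10 windows in all, with 2 each for Pklr and Pcx and none for Gys2. They were searched on both strands for exact matches to 6 motifs: the cAMP response element TGACGTCA, its core ACGTCA, which lies within it, the E-box CACGTG, the forkhead motif GTAAACA, the TATA box TATAAA and the nuclear receptor motif TGACCTTTG. The core of the cAMP response element was found in Pck1 and Ppargc1a, and in 7.51% of all 32851 promoter windows. The TATA box was found in G6pc and in the downstream window of Pklr (13.6% of all windows), and the E-box in 1 window of Pcx (7.15%). The full cAMP response element, the forkhead motif and the nuclear receptor motif had 0 matches in these 10 windows, and 1.79%, 3.65% and 0.478% of all windows held them. Capitals mark the matches: ACGTCA from base 160 in Pck1, TATAAA from base 222 in G6pc and from base 220 in Pklr, and none in Pygl and Slc2a2. Pck1 lies on the plus strand at chr2:173152823-173153122, G6pc on the plus strand at chr11:101367466-101367765, Pklr on the plus strand at chr3:89136373-89136672, Pygl on the minus strand at chr12:70227634-70227933 and Slc2a2 on the plus strand at chr3:28697653-28697952, each around a RefSeq gene start. The windows of Pklr and Pygl lie inside the gene spans given above, downstream of their outermost start.
Pck1: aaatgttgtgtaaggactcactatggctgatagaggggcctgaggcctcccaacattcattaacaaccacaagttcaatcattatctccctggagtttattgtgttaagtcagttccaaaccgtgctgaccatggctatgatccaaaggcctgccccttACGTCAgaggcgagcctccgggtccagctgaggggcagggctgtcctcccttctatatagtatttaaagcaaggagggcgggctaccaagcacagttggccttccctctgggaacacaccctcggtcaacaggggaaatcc
G6pc: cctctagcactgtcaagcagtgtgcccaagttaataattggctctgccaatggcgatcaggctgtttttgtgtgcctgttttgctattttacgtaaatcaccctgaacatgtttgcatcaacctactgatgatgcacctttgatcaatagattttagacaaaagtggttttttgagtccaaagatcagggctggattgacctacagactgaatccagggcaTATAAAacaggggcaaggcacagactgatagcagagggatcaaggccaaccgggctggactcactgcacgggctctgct
Pklr: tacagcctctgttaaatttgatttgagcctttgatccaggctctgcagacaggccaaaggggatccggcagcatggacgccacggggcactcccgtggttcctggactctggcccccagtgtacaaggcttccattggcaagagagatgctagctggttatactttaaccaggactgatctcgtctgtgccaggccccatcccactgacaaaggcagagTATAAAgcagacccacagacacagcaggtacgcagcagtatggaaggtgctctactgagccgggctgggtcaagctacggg
Pygl: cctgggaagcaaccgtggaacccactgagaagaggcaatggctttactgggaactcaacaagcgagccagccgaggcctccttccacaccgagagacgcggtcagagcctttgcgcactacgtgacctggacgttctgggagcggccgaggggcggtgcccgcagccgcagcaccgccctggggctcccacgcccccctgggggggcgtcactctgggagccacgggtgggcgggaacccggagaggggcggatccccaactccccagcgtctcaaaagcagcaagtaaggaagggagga
Slc2a2: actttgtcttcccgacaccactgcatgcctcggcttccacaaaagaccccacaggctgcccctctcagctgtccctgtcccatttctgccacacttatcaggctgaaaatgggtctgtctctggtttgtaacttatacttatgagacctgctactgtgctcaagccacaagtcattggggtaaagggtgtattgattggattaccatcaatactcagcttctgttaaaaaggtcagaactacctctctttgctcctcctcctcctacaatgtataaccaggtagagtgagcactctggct

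By likeness of log2 CPM over the 15 mice, with no test, the genes closest to Pklr were Tmie, Abcb11 and Gm4951 (Pearson r = 0.99, 0.98 and 0.98). For Slc2a2 they were Galm, Cyp2c40 and Mme (r = 0.99, 0.98 and 0.98) and for Pygl Cog4, Maob and Abhd3 (0.99, 0.98 and 0.98). The r of these genes without O2 and O5 ranged from 0.82 to 0.91. Fbp1 was closest to Hpd, Hal and Pgm1 (0.97, 0.96 and 0.96), of which Hal is a periportal enzyme of histidine breakdown and Pgm1 interconverts glucose phosphates. Pcx was closest to Slc25a15, Mtfr1 and Cps1 (0.94, 0.93 and 0.92), Gys2 to Clmn, Pcsk4 and Zfyve9 (0.95, 0.93 and 0.93), and Ppargc1a to Got1, Foxo3 and 1810013D15Rik (0.95, 0.95 and 0.94). For Pck1 the closest were Slc35g1, Slc38a2 and Ippk (0.88, 0.86 and 0.82), and for G6pc Zfp654, E2f5 and Lrrc41 (0.86, 0.85 and 0.83).

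Few other genes of these pathways passed the test with all mice. Over all genes, 4.71% rose and 2.07% fell between Old and Adult, 1.76% and 0.898% between PDX and Adult. In the fit without O2 and O5 these shares were 4.85% and 2.26%, and 14.4% and 10.2%. The genes given below for that fit alone were named after their values were seen. Of 28 other glycolysis genes tested (of 29), 1 rose and 0 fell between Old and Adult, and 1 rose between PDX and Adult, while 0 passed between PDX and Old. In the fit without O2 and O5, 2 rose between Old and Adult (Pkm and Ldha), and 9 rose and 3 fell between PDX and Adult. The median log2 fold change between Old and Adult was 0.27, and 0.13 without O2 and O5, against 0.07 over all genes. Pkm, the pyruvate kinase of most other tissues, rose from 26.8 ± 4.68 to 85.4 ± 88.4 CPM (SD, n = 5 each) between Adult and Old, a log2 fold change of 1.68 (SE 0.45, adjusted p = 0.0386 in edgeR's test). O2 had 243 CPM of Pkm and the other Old mice 40.1 to 52.2, all above the highest Adult mouse at 33.4. Without O2 and O5 the log2 fold change was 0.74 (adjusted p = 0.0377 in edgeR's test). Pfkfb4 encodes an enzyme that both makes and breaks down the activator of phosphofructokinase. Pfkfb4 rose between Adult and PDX by 3.94 on the log2 scale (SE 0.74, adjusted p = 0.0117 in edgeR's test). Its PDX values were 41.0, 45.8, 6.69, 8.50 and 2.79 CPM in P1 to P5, against 0.915 to 1.72 in the Adult group. The Old mice had 2.67 to 14.2 CPM of Pfkfb4, all above every Adult mouse, with a log2 fold change of 2.06 against Adult (adjusted p = 0.0754 in edgeR's test). Against Old, PDX gave 1.88 (adjusted p = 0.793 in edgeR's test). Aldoa, which has 2 gene IDs with that symbol, was counted by the ID with more counts and is uncertain.

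Among 17 other gluconeogenesis genes tested (of 19), 1 rose and 1 fell between Old and Adult, 1 rose between PDX and Adult, and 0 passed between PDX and Old. When O2 and O5 were left out, 1 rose (Pck2) and 1 fell (Gpt) between Old and Adult, and 1 rose (Pck2) and 5 fell (Mdh1, Gpt, Gk, Aqp9 and Slc25a11) between PDX and Adult. Pck2, the mitochondrial counterpart of Pck1, went from 4.52 ± 0.690 CPM in Adult to 9.45 ± 3.19 in Old and 9.72 ± 1.17 in PDX (SD, n = 5 each). Every Old and every PDX mouse lay above every Adult mouse. The log2 fold change was 1.07 between Old and Adult (SE 0.20, adjusted p = 0.0121 in edgeR's test) and 1.11 between PDX and Adult (SE 0.20, adjusted p = 0.00875 in edgeR's test). Gpt, an alanine aminotransferase that supplies pyruvate, fell from 621 ± 101 to 333 ± 117 CPM between Adult and Old (log2 fold change -0.90, SE 0.23, adjusted p = 0.0322 in edgeR's test), without overlap. Mdh1 had the highest mean TPM of the list in Adult (757) and in PDX (562). In Old the mean of Got1 was higher (890 against 503 TPM), but not without O2 and O5 (258 against 563 TPM). Between Old and Adult, Mdh1 had a log2 fold change of -0.64 (adjusted p = 0.0537 in edgeR's test).

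Of 24 other glycogen genes tested (of 25), Ugp2 alone passed with all mice. In the fit without O2 and O5, 2 rose (Pgm2 and Pygb) and 8 fell between PDX and Adult, and 1 fell (Ugp2) between Old and Adult. Ugp2 encodes the enzyme that makes UDP-glucose, the donor of glycogen synthase. It had the highest mean TPM of its list in Adult (334). The mean of Pgm1 was above that of Ugp2 in Old (194 against 171 TPM) and in PDX (191 against 176 TPM). Ugp2 fell from 401 ± 77.3 CPM in Adult to 195 ± 48.7 in Old (SD, n = 5 each), a log2 fold change of -1.04 (SE 0.19, adjusted p = 0.0112 in edgeR's test). In PDX it stood at 214 ± 34.9 CPM, -0.91 against Adult (SE 0.19, adjusted p = 0.0195 in edgeR's test). Neither older group overlapped with Adult, and both calls held without O2 and O5 (adjusted p = 0.0157 and 0.00139 in edgeR's test). Between PDX and Old its log2 fold change was 0.13 (95% interval -0.27 to 0.53).

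None of the 8 fructose and galactose genes and none of the 7 other glucose transporters tested (of 9) passed in any comparison with all mice. When O2 and O5 were left out, 2 rose and 2 fell among the fructose and galactose genes between PDX and Adult, and 1 rose and 1 fell between Old and Adult. Of the transporters, 1 rose (Slc2a3) and 1 fell (Slc2a9) between PDX and Adult in that fit. The most abundant of these lists, Sord and Slc2a9, had log2 fold changes of -0.86 and -0.56 between Old and Adult (adjusted p = 0.0696 and 0.117 in edgeR's test). Of 29 transcriptional and hormonal regulators, 1 rose between Old and Adult, and in the fit without O2 and O5 1 rose (Cebpb) and 3 fell (Cebpa, Mlxipl and Srebf1) between PDX and Adult. The gene that rose with all mice was Irs2, an adaptor of the insulin receptor, with 26.9, 38.2, 42.4, 97.6 and 162 CPM in O1 to O5 against 15.3 to 34.8 in the Adult group (a fold change of 2.83, adjusted p = 0.0391 in edgeR's test). The call was lost without O2 and O5 (log2 fold change 1.11, adjusted p = 0.0519 in edgeR's test). The PDX mice lay between 26.7 and 31.3 CPM of Irs2. Igfbp1, a gene raised by fasting and lowered by insulin, had the highest mean TPM of this list over the 15 mice, with an Old mean of 2473 ± 4287 TPM (SD, n = 5) that was 553 ± 511 without O2 and O5 (n = 3). In Adult mice it stood at 223 ± 145 TPM (SD, n = 5), below the means of 5 genes of the list, Cebpa (481 ± 101), Hnf4a (431 ± 46.1), Srebf1, Gcgr and Mlxipl, which were named after their values were seen. Igfbp1 reached 5504 CPM in O5 and 728 in O4, against 129 to 252 in O1 to O3, 20.3 to 224 in Adult and 149 to 520 in PDX. O4 and O5 were also the highest Old mice for Pck1, G6pc and Irs2. The part of feeding state was not tested.

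Of the counterparts of the 9 genes in other tissues, 8 of 10 passed the filter, and Pkm and Pck2 passed the test, as given above. Between PDX and Adult 3 rose without O2 and O5 (Pkm, Pck2 and Pygb). The others tested were G6pc3, Slc2a1, Gys1, Pygb, Pygm and Ppargc1b, whose log2 fold changes between Old and Adult lay between -0.09 and 0.93 (Pygb, adjusted p = 0.0646 in edgeR's test). Per length, the liver form made up nearly all of its family in Adult mice for Fbp1, Pck1, Gys2, G6pc and Pygl, at 96.9% or more of the TPM on average. The share was 93.8% ± 1.31 for Pklr beside Pkm and 91.0% ± 2.66 for Slc2a2 beside Slc2a1 (SD, n = 5 each). In Old mice these shares were 64.7% ± 32.4 and 66.6% ± 35.2, with 15.4% and 5.96% in O5. In PDX mice they were 81.4% ± 6.63 and 82.6% ± 7.16. The median shares of Pklr and Slc2a2 were 84.5% and 77.9% in Old, and 83.6% and 84.6% in PDX. For Pygl the share went from 96.9% ± 0.416 in Adult to 87.7% ± 9.80 in Old, with 72.8% in O5, and was 94.6% ± 1.2 in PDX. For Fbp1, Pck1, Gys2 and G6pc the mean share was 96.0% or more in Old and 94.8% or more in PDX. Ppargc1a made up 61.5% ± 14.8 of its pair with Ppargc1b in Adult mice.

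Liver holds other cells than hepatocytes, and in bulk RNA fewer cells of a type and less RNA per cell cannot be told apart. All 7 hepatocyte markers had counts in every mouse, and their summed level was 131707 ± 5205 CPM in Adult, 126286 ± 58974 in Old and 139564 ± 22613 in PDX (SD, n = 5 each), led by Alb. It was lowest in O5 (61476) and O2 (75719), and highest in O1 (202638). No hepatocyte marker passed in any comparison. The 7 periportal markers, led by Cps1, summed to 8894 ± 878 CPM in Adult, 5224 ± 2527 in Old and 5616 ± 1077 in PDX, and 2 of them fell between Old and Adult. Pck1, G6pc and Fbp1 are enzymes of the periportal zone by background knowledge. The 7 pericentral markers, led by Cyp2e1, summed to 10482 ± 954, 4218 ± 1459 and 4070 ± 683 CPM, and 3 of them fell between Old and Adult and 3 between PDX and Adult. The part of zonation in the levels of the 9 genes was not tested.

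Several lists of immune cell markers had called genes. The 8 neutrophil and myeloid progenitor markers, led by S100a9, summed to 4.2 ± 1.41 CPM in Adult, 86.7 ± 102 in Old and 95.3 ± 61.7 in PDX, with 266 in O2, and all 8 rose between Old and Adult and 3 between PDX and Adult. A leading gene was not the highest of its list in every mouse, as S100a9 had 6.27 of 89.7 CPM in P1. Elane and Camp were at 0 in some mice. The 8 Kupffer cell and macrophage markers, led by Lyz2, summed to 575 ± 92.5, 1232 ± 1338 and 1381 ± 433 CPM, and 1 rose in each older group against Adult. O2 had 3589 CPM of these and O5 302. Of 6 B and plasma cell markers, led by Cd79b, 4 rose between Old and Adult and 1 between PDX and Adult, and the sum was 10.9 ± 2.25, 55.5 ± 45.9 and 47.4 ± 14.0 CPM. The 6 T and NK cell markers, led by Cd4 (116 CPM in O2 and at most 3.28 in any other mouse), summed to 3.55 ± 1.06, 34.1 ± 68.6 and 10.1 ± 5.86 CPM, with 157 in O2, none of the 5 tested passed, and Ncr1 was at 0 in some mice. Pkm, which is expressed in these cells by background knowledge, was also highest in O2. The 5 stellate cell markers, led by Dcn, summed to 341 ± 12.9, 512 ± 212 and 386 ± 125 CPM, with 822 in O5, and 1 of them rose between Old and Adult. The sums were 258 ± 9.51, 198 ± 47.4 and 237 ± 26.4 CPM for 5 sinusoidal endothelial markers, led by Clec4g, and 44.9 ± 5.51, 68.2 ± 17.7 and 75.8 ± 20.2 for 5 cholangiocyte markers, led by Spp1, of which 1 rose between PDX and Adult. For 5 erythroid markers, led by Hbb-bs, they were 211 ± 33.4, 386 ± 396 and 259 ± 143 CPM, with 1043 in O2. No endothelial or erythroid marker passed. The part of cell makeup in the results for the 9 genes was not tested.

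Many genes of glucose metabolism follow the time of day. None of 13 circadian clock genes passed in any comparison with all mice, but their median log2 fold change was -0.14 between Old and Adult, -0.86 between PDX and Old and -1.06 between PDX and Adult, against 0.07, -0.07 and -0.01 over all genes. These medians were -0.39, -0.34 and -1.04 without O2 and O5, where 4 fell between PDX and Adult (Clock, Cry2, Dbp and Tef, named after their values were seen), beside 10.2% of all genes. Nr1d1, the most abundant, ranged from 56.3 to 226 CPM in Adult, from 12.4 to 177 in Old and from 31.3 to 97.8 in PDX. Gavage took place in the morning. By the study's methods, the mice of a batch were killed within a day, in an order that alternated by group and sex, and neither the batch nor the time is given for each mouse. The part of time of day in the levels of G6pc and the other genes was not tested.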

How the data were processed

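Livers of 15 mice, 5 per group, were sequenced as strand-specific poly(A) libraries. The authors aligned reads to mm10 with STAR 2.6.0c and made the deposited counts per Ensembl gene with featureCounts of Subread 1.6.2. Only uniquely aligned read pairs were counted, so that counts of genes with near-identical copies are uncertain. The authors also deposited log2 values made with the variance stabilizing transformation of DESeq2 1.23.10, which were used here in an alternative fit. The number of columns without a sample was 0. Total counts per mouse ran from 22424383 to 36070835 and set the precision of low genes.

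Symbols and positions came from GENCODE M21. Genes were filtered with filterByExpr (minimum count 10, minimum total 15), scaled with TMM factors and fitted in 1 edgeR 4.0.16 quasi-likelihood model of all 15 mice (R 4.3.3), with Benjamini-Hochberg adjustment over all genes tested and a threshold of 0.05, and also 0.25 for PDX against Old. The calls were tested on simulated data. Pairs of genes were tested with 100000 permutations within groups of log2 CPM (prior count 2). Tables were made with Python 3.11.15, numpy 2.4.6, scipy 1.17.1 and pandas 2.3.3.

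Alternatives were the Wald test of DESeq2 1.42.0, limma 3.58.1 on the log2 values, other scaling factors and filters, a robust fit, fits of the mice of both groups alone, a block for replicate number, and leaving out each mouse or O2 and O5. The 9 genes and all lists were chosen with earlier results of these data known. Named beyond the 9 were each list's called genes, for most lists the gene with the highest mean TPM over the 15 mice, all counterparts in other tissues that passed the filter, the 3 genes most like each of the 9 and the leading gene of each marker list. The alignment of proteins between counterparts was not run, since no protein table was available.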

Additional observations from a re-analysis of the deposited data

Results flagged for a closer look

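In 2 of the 27 sets of 5 mice (9 genes in 3 groups), 1 mouse lay farther from the others than Dixon's 95% critical value of 0.71 allows. Chance gives about 1 such set in 20. Ppargc1a, the coactivator of gluconeogenic genes, stood at 36.15 CPM in Old mouse O5, where the gap to the next Old mouse made up 0.815 of the group's range. In the Adult group, Ppargc1a stood at 15.73 CPM in mouse A3, with a ratio of 0.712.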

How the results depend on the processing

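Over 26 alternative settings, 702 fold changes of the 9 genes were recomputed. Of these, 641 kept their direction and side of the threshold, 16 no longer passed it, 18 newly passed it and 27 changed direction. The cause of these changes was not tested.

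Between Old and Adult, the number of the 9 genes called was 0 with no filter on low counts, with only the mice of both groups and with upper quartile factors, and 0 to 2 when each mouse was left out in turn. All genes called numbered 2604 with the Wald test of DESeq2, 651 with limma, 665 with no filter, 105 with only the mice of both groups, and 156 to 2178 with each mouse left out. Between PDX and Old, the Wald test called 1 gene at both thresholds. Between PDX and Adult, the number of the 9 called was 2 with the Wald test, 5 with only the mice of both groups, 5 without O2 and O5, and 0 to 3 with each mouse left out. All genes called were 1384, 4529 and 4004 in these settings, and 166 to 1766 with each mouse left out. Of the gene pairs, 0 passed without O2 and O5, and 0 without O5 alone, which was chosen after seeing the data.

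Same-numbered mice had a mean r of -0.17 between Old and Adult, 0.09 between PDX and Old and 0.03 between PDX and Adult. For mice of different numbers it was 0.04, -0.02 and -0.008. The main fit used no pairing, and whether same-numbered mice shared a batch was not tested. With a replicate block, 0 of the 9 genes and 237 of all genes were called between Old and Adult, and log2 fold changes were -0.11 for Ppargc1a there and 0.25 for Slc2a2 between PDX and Old.

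Directions that changed belonged to log2 fold changes that missed the threshold. Ppargc1a between Old and Adult was -0.12 with limma and -0.50 without O2 and O5. In the absence of O2 and O5, PDX against Old was -0.034 for Pklr, 0.21 for Pck1 and 0.26 for Ppargc1a. In that comparison Pcx was -0.017 with library totals only and Slc2a2 0.80 with limma. With each mouse left out, log2 fold changes between Old and Adult ran from -0.42 to 0.047 for Pck1, -0.12 to 0.34 for G6pc and -0.70 to 0.64 for Ppargc1a. Between PDX and Old they ran from -0.23 to 0.23 for Pck1, -0.12 to 0.19 for Pcx, -0.33 to 0.40 for Slc2a2, -0.25 to 0.0030 for Gys2 and -0.85 to 0.45 for Ppargc1a. For PDX against Adult they ran from -0.39 to 0.012 for Pck1 and -0.38 to 0.031 for Ppargc1a.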
